A study of Drosophila melanogaster with 2 samples.

Results

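Tubulin genes of Drosophila were compared between yw and homozygous mbf1 mutant animals. Of their 8 probe sets, 7 differed by less than 1.5-fold between the arrays. So did 84.8% of all genes that exceeded a signal floor on at least 1 array, a similar share. The rule named 7 genes, alphaTub84B, alphaTub84D, alphaTub85E, alphaTub67C, betaTub56D, betaTub60D and betaTub85D, and a probe set was taken where the platform annotation gave 1 of these as its gene symbol. It found 8 probe sets for 6 of the 7 genes, among 10844 genes and 14010 probe sets in all. No probe set carried the symbol alphaTub84B, which is therefore not analysed here.

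The control group, yw, carries mutant alleles of the pigmentation genes yellow and white, and the other group, mbf1, was homozygous for a mutation of mbf1, the gene of a transcriptional coactivator. Neither the allele nor its genetic background is stated in the labels. Both groups were labelled as embryos, left on the plate for 16 h at 25 °C, and RNA of each genotype went to 1 Affymetrix array, of the chip type DrosGenome1. With 1 array per genotype no test was possible, so each difference below is one between 2 arrays and carries no replicate error.

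Microtubules are hollow polymers of alpha- and beta-tubulin dimers. They form the spindle that separates chromosomes, the tracks on which kinesin and dynein motors move, and the axoneme, the bundle of microtubules inside cilia and sperm tails. Flies make each subunit from several genes: alphaTub84B, alphaTub84D and betaTub56D are used in most cells, alphaTub67C is supplied by the mother to the egg, betaTub85D serves the male germ line and the sperm tail, and alphaTub85E and betaTub60D are restricted to a few tissues, among them developing muscle and stretch receptors.

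The deposited signals are intensities, computed by the authors for each probe set. They were brighter in mbf1 by 0.55 on the log2 scale over the bulk of bright probe sets, and that difference was removed before the arrays were compared. Signals below are after this scaling, and each log2 ratio is mbf1 over yw. A signal of 17.7, the 40th percentile of both arrays' pooled values, was taken as the floor: 7677 genes exceeded it on at least 1 array and are called measured. The mbf1 gene itself read 478.7 in yw and 22.1 in mbf1, a log2 ratio of -4.44. The 3′ over 5′ ratios of the chip's control transcripts, a mark of RNA integrity, were 2.33 and 2.20 for actin, 3.09 and 2.55 for eIF-4a and 2.57 and 2.88 for GAPDH, in yw and mbf1. Over all genes, 65.9% exceeded the floor in yw and 66.2% in mbf1. Of 15 early patterning genes of the embryo with a probe set, 6 exceeded the floor in yw and 8 in mbf1, with en, hh and Kr under it on both. Of 9 genes of dividing cells 3 and 2 did, and of 13 neuronal genes 6 and 7, with the neuronal marker elav under the floor on both.

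All 6 tubulin genes were measured, each represented by its brighter probe set, and 0 of the 6 differed by 2-fold or more, where 3.14% of the 7677 measured genes did. Their log2 ratios ran from -0.29 to 0.36 with a median of 0.05, 3 above 0 and 3 below, and the median over all measured genes was 0.00. Without scaling between the arrays all 6 ratios were above 0, from 0.26 to 0.83, against a median of 0.50 over all genes. All 6 also lay within 1.5-fold, as did 84.8% of all measured genes. Among the 8 probe sets 1 exceeded 2-fold, the second probe set of betaTub60D. The count of 0 of 6 was the same under each of the 13 alternatives to the processing, but several of these could give nothing else. These were the 3-fold threshold, the changed floors, the pseudocount, the demand for signal above the floor on both arrays, and the removal of suffixed probe sets. Their unchanged count adds no support. However, only 5 of the genes were measured once the floor was raised to the 60th percentile. Only 3 were measured when probe sets with a suffix were left out.

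**Figure D1:**
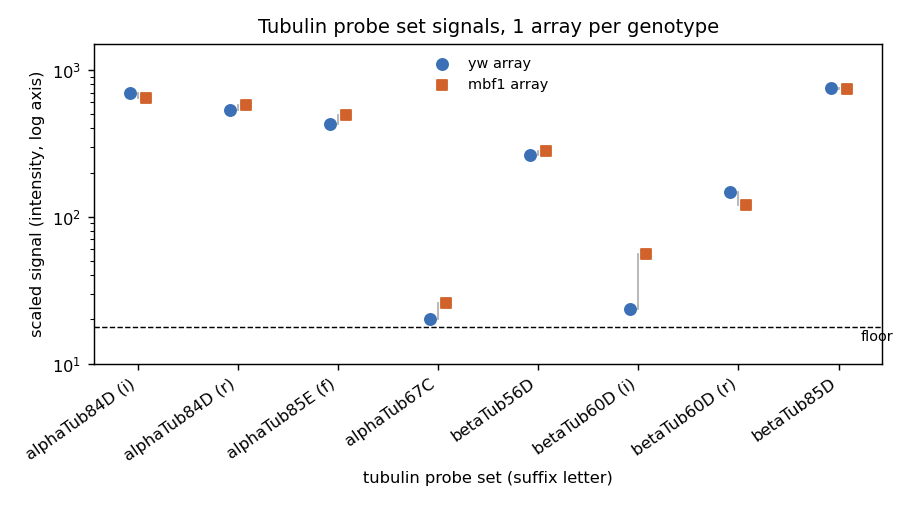
Scaled signal (intensity, log axis) of the 8 tubulin probe sets on the yw (circles) and mbf1 (squares) arrays, joined by a grey line, with the floor of 17.7 dashed; letters in brackets are the suffix of the probe set. The paired symbols nearly coincide in height except for betaTub60D (i), at 23.4 and 55.7, and alphaTub67C lies just above the floor.

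Among the alpha-tubulins of most cells, alphaTub84D was read by a pair of probe sets. The first, 141709_i_at, had a signal of 696.3 in yw and 645.3 in mbf1, a log2 ratio of -0.11. The second, 141710_r_at, read 533.0 in yw and 579.5 in mbf1, a log2 ratio of 0.12. One array was thus brighter by the first probe set and the other by the second, and each ratio was smaller than 0.37 and 0.35, the robust SD of log2 ratios among the 500 measured genes of nearest signal. That SD describes the spread between genes and is no replicate error. In the naming of this chip generation, the suffix i marks a probe set with fewer probes than the design asked for, r one whose selection rules were relaxed and f one that reads a family of similar sequences. The coding sequences of alphaTub84D and alphaTub84B are known to be nearly identical, so these signals may hold both transcripts.

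The ubiquitous beta-tubulin betaTub56D, a partner of both, had signals of 263.6 and 282.0 in yw and mbf1. Its log2 ratio was 0.10, with a robust SD of 0.30 among the 500 genes nearest in signal. Its place among all probe sets of the array, which needs no scaling, was percentile 93.9 in yw and 94.2 in mbf1. By log2 ratio the ubiquitous tubulins were thus near the bulk of genes, and the rank of betaTub56D was similar on both arrays. With scaling on hybridization controls the ratios of alphaTub84D and betaTub56D were 0.10 and 0.31, against a median of 0.19 over all genes.

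Genes that, like alpha-tubulin, are often used to set RNA levels gave a mixed picture. The ribosomal protein genes RpL32 and RpS20 had log2 ratios of -0.01 and -0.02. RpL32 had signals of 2092 and 2073, and RpS20 of 2720 and 2679. The glycolytic gene Gapdh1 read 3940 in yw and 2816 in mbf1, a log2 ratio of -0.48, and Tbp, the gene of the TATA-binding protein, had 19.5 and 22.3, a ratio of 0.19 close to the floor. Only 4 of the 10 listed reference genes had a probe set of their own symbol here. The median ratio of these 4 was -0.02 and depended on the scaling. It was 0.19 after quantile normalization and 0.18 after a loess fit of ratio on signal, against 0.01 and 0.00 over all genes.

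The maternal alpha-tubulin alphaTub67C, which serves meiosis in the egg and the first divisions of the embryo, lay close to the floor in both genotypes. Its signal was 20.2 in yw and 26.1 in mbf1, 1.14 and 1.47 times the floor. The log2 ratio of 0.36 was the highest of the 6 genes, and the robust SD among the 500 genes nearest in signal was 0.51. Its rank differed, from percentile 43.4 of the yw array to 50.9 of the other. A value this close to the floor does not fix the size of the difference. Of 16 genes whose RNA the mother loads into the egg, 7 exceeded the floor on each array, where 65.9% of all genes did in yw and 66.2% in mbf1. Of the 16, bcd, osk, vas, png, plu and wisp were under the floor on both. The 8 measured ones had a median log2 ratio of 0.17, and 0 of the 8 differed by 2-fold, where 3.14% of all measured genes did. Above 0 were 6 of the 8, where 49.8% of all measured genes were. Lowering the floor to the 25th percentile gave a median of 0.04. Among the 8, CycB, a mitotic cyclin that is also on the list of dividing cells, had signals of 72.8 and 40.9, and exu, which localises RNA in the egg, had 131.4 and 160.1. The maternal gamma-tubulin gammaTub37C was under the floor on both arrays by both of its probe sets.

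**Figure D2:**
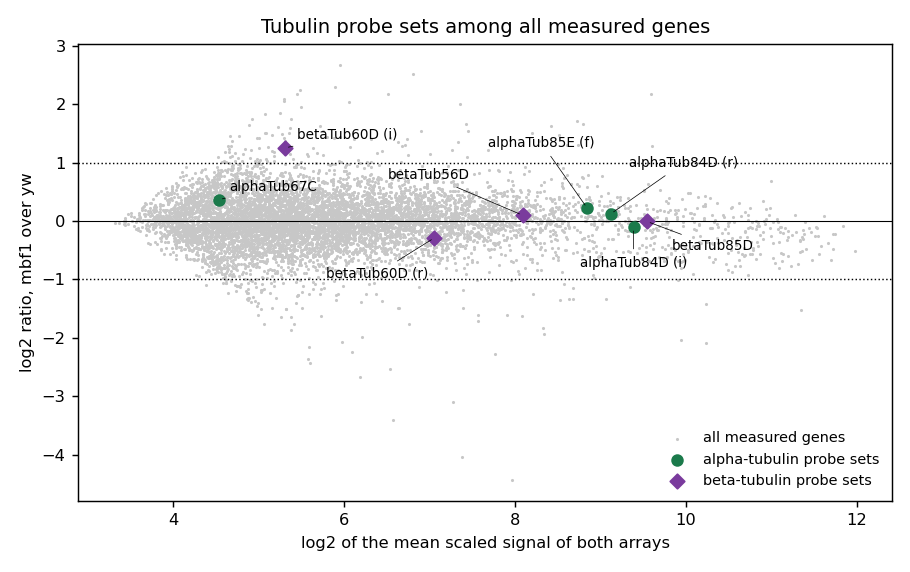
Log2 ratio of mbf1 over yw against the log2 of the mean scaled signal, for all 7677 measured genes (grey), alpha-tubulin probe sets (circles) and beta-tubulin probe sets (diamonds); dotted lines mark 2-fold. Of the 8 tubulin probe sets, only betaTub60D (i) lies outside the dotted lines, at 1.25.

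The testis tubulin betaTub85D was far above the floor on both arrays, which are labelled as embryos. Its signal was 748.0 in yw and 744.4 in mbf1, 42.2 and 42.0 times the floor. The log2 ratio was -0.01, and the gene stood at percentile 97.4 of the yw array and 97.7 of the mbf1 array. The log2 ratio was the nearest to 0 of the 8 tubulin probe sets in this setting. Its ratio was 0.15 after quantile normalization, 0.21 with scaling on hybridization controls and 0.54 without scaling.

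Of 28 testis genes with a probe set, 21 exceeded the floor in yw and 24 in mbf1, where 65.9% and 66.2% of all genes did. Their signals summed to 17029 and 15491, with single genes between 4.24 and 2876 in yw and between 4.97 and 2462 in mbf1. Most of each sum came from the bright genes Mst84Da, Mst84Db, Mst84Dc and Mst84Dd, so the sums do not describe the list as a whole. Over the 25 measured testis genes the median log2 ratio was 0.01, with 13 above 0 and 12 below. Of the 25, 0 differed by 2-fold, where 3.14% of all measured genes did. Mst77F, a component of sperm chromatin, read 258.7 in yw and 425.2 in mbf1, a log2 ratio of 0.72. ProtB, a protamine that packs DNA in the sperm head, was at least 1.47-fold brighter in mbf1, and aly, which switches on genes of meiosis and spermatids, was at least 1.48-fold dimmer, with its mbf1 signal under the floor. The part of male tissue in the signal of betaTub85D was not tested. In RNA of whole animals, fewer cells of a type and less RNA per cell cannot be told apart.

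Of 14 components of the axoneme, which betaTub85D helps to build in the sperm tail, 9 were measured, where 70.8% of all genes were, with a median log2 ratio of 0.01, 5 above 0 and 4 below. At 2-fold was 1 of the 9, where 1.51% of all measured genes were at least 2-fold higher. This was Tektin-A, the gene of a filament protein of axonemal microtubules, at 16.8 in yw, under the floor, and at 50.6 in mbf1, or at least 2.85-fold more. Bug22, a conserved cilium protein, read 145.8 in yw and 90.3 in mbf1, a log2 ratio of -0.69, and tilB, which is needed for dynein arms, one of -0.38. Tektin-C read 39.0 in yw and 42.8 in mbf1, a log2 ratio of 0.13.

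The tissue-restricted alphaTub85E was read by 1 probe set with the suffix f. Its signal was 424.6 in yw and 495.1 in mbf1. The log2 ratio of 0.22 was smaller than the robust SD of 0.32 among the 500 genes nearest in signal. Since the f suffix marks a probe set that reads a family of sequences, other alpha-tubulins may contribute to this signal, and the gene's own level is uncertain.

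The restricted beta-tubulin betaTub60D gave opposite readings by its pair of probe sets. The brighter, 143392_r_at, had a signal of 146.4 in yw and 119.9 in mbf1, a log2 ratio of -0.29 with a robust SD of 0.34 among the 500 genes nearest in signal. The dimmer, 143391_i_at, had 23.4 and 55.7, a log2 ratio of 1.25 or 2.38-fold higher in mbf1, with a robust SD of 0.40. The first was higher in yw and the second higher in mbf1, so these arrays give no direction for the gene. By rank within the array, the first stood at percentile 88.8 in yw and 86.3 in mbf1, and the second at 47.8 and 71.8. The yw signal of the second was 1.32 times the floor, and raising the floor to the 60th percentile gave a ratio of 0.64. The mean over both probe sets was 0.48.

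The readings of betaTub60D were farther apart than those of nearly all genes with several probe sets. Their log2 ratios differed by 1.54, and those of alphaTub84D by 0.23. Over 314 pairs of probe sets of 1 gene, in 260 genes whose probe sets exceeded the floor in both genotypes, the median difference was 0.34 and the 95th percentile 1.03. Of these pairs 3 differed by at least as much as betaTub60D, which is 0.955% with betaTub60D itself counted. Dim pairs were somewhat farther apart. Over 197 pairs whose dimmer probe set was no brighter than that of betaTub60D, the median was 0.35 and the 95th percentile 1.11. Among these 197, 1.52% differed by at least as much as betaTub60D, itself counted, and 8.63% by at least 1. Among the 13 genes whose pair had the suffixes i and r, as betaTub60D and alphaTub84D do, the median was 0.16, and the largest difference apart from betaTub60D was 0.997. Most of the other i and r pairs were brighter than that of betaTub60D, by the dimmer probe set of each. Which of the readings of betaTub60D follows the transcript was not tested.

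**Figure D3:**
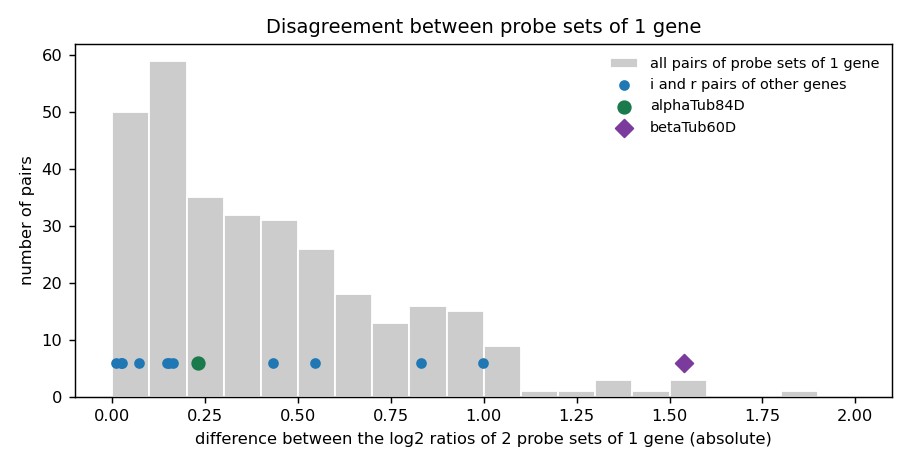
Number of pairs of probe sets of 1 gene (grey bars, 314 pairs) by the absolute difference between their log2 ratios, with the 13 genes read by an i and an r probe set as symbols whose height carries no value. alphaTub84D lies at 0.23 among the bulk, and betaTub60D at 1.54 beyond the 95th percentile of 1.03.

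Muscle genes, named here because betaTub60D is the beta-tubulin of developing muscle, were mostly lower in mbf1 relative to the bulk of genes. Of 23 measured, 19 had ratios below 0 and the median was -0.46, where 49.8% of all measured genes had ratios above 0. This list was chosen with an earlier result on these arrays known, so it adds no independent evidence. At least 2-fold lower were 3 of the 23, where 1.63% of all measured genes were, namely the flight muscle gene fln with signals of 764.9 and 302.7, the LIM protein gene Mlp60A with 232.6 and 102.3, and the troponin C gene TpnC4 with 519.3 and 245.3. The signals of all 23 summed to 21595 in yw and 14791 in mbf1. Without scaling the median was 0.09, against 0.50 over all genes. The part of muscle in the signals of betaTub60D was not tested. Stretch receptors also use betaTub60D and alphaTub85E. Of 10 of their genes, 5 exceeded the floor in yw and 3 in mbf1, where 65.9% and 66.2% of all genes did. The channel genes nan and iav were under it on both, and the 5 measured had a median ratio of -0.17.

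Other measured tubulins also differed by less than 1.5-fold. betaTub97EF read 232.0 in yw and 203.7 in mbf1, a log2 ratio of -0.19, and betaTub65B had 68.9 and 66.8, a ratio of -0.04. The gene CG7794, which the gene table also lists as Tub1B and which was added after its values were seen, had 209.9 and 207.2, a ratio of -0.02.

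The genes that fold tubulin had medians above that of all genes. Of the 14 measured, 0 differed by 2-fold, where 3.14% of all measured genes did. CCT is the ring-shaped chaperonin that folds tubulin and actin, and all 8 of its subunit genes had ratios above 0, from 0.05 to 0.73 with a median of 0.42, where 49.8% of all measured genes had ratios above 0. CCT2 had signals of 158.0 and 251.2, CCT3 of 23.9 and 39.7, and CCT5 of 75.4 and 112.3. The 8 ratios were also above 0 after quantile normalization and after a loess fit of ratio on signal. Leaving values unscaled, or scaling on hybridization controls or ribosomal protein genes, removes a smaller shift and could only raise these ratios. Under the 5 other scalings their median exceeded that of all genes by 0.41 to 0.47. With a floor raised to the 60th percentile the median of the 8 ratios was 0.20. Like the other lists, this one was chosen with earlier results of these arrays known. Prefoldin, which hands new tubulin chains to CCT, had a median of 0.41 over 6 genes, with 4 of 6 above 0. Without scaling 6 of 6 were above 0, as were 90.1% of all measured genes. With scaling on hybridization controls 6 of 6 were, as were 70.9% of all measured genes. Pfdn2 had signals of 44.1 and 72.5 and Pfdn6 of 59.9 and 96.3, whereas mgr, a prefoldin subunit, had 81.3 and 77.4.

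The tubulin cofactors, which join alpha- and beta-tubulin into dimers, had 4 measured genes. Tbcb, Tbcc and Tbce had ratios of 0.17, 0.13 and 0.05. Tbcd was at 4.09 in yw, under the floor, and at 29.7 in mbf1, at least 1.68-fold higher. Of the gamma-tubulin ring complex, which starts new microtubules, 3 of 6 genes were measured, where 70.8% of all genes were. Grip84 read 18.3 in yw and 37.5 in mbf1, a log2 ratio of 1.03, with its yw signal just above the floor, and was the 1 gene of the complex at 2-fold, where 1.51% of all measured genes were at least 2-fold higher. Grip128 was at least 1.38-fold brighter in mbf1 and Grip91 had a ratio of -0.10, and Grip71, Grip75 and Grip163 were under the floor on both arrays.

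**Figure D4:**
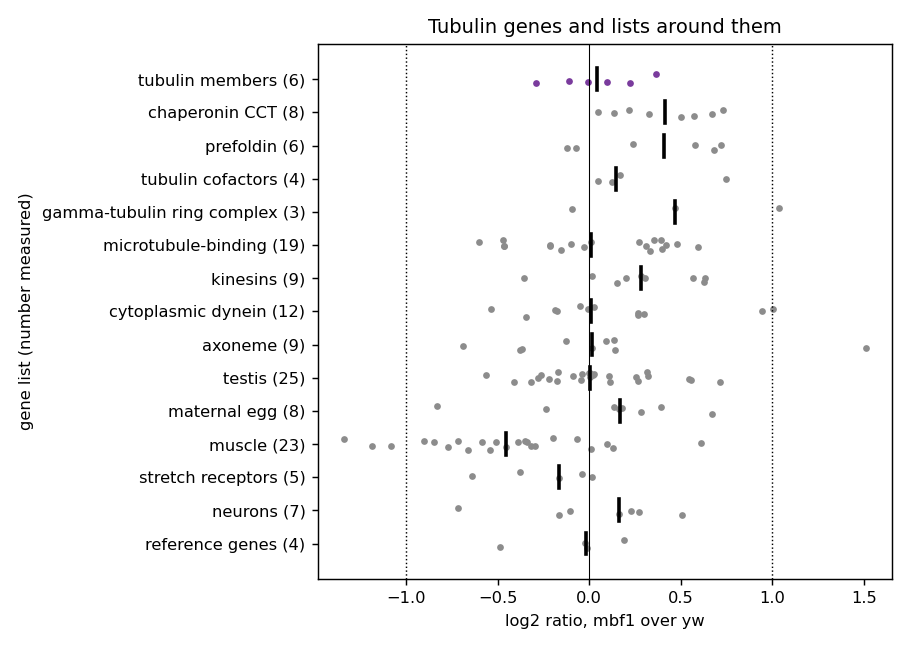
Log2 ratio of mbf1 over yw for each measured gene (points) of the tubulin members and 14 gene lists, with the list median as a black bar, the number measured in brackets and dotted lines at 2-fold; the vertical spread of points carries no value. The 6 tubulin genes lie around 0, the 8 CCT genes are all above 0 and 19 of 23 muscle genes are below 0.

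Proteins that bind, cut or modify microtubules had a median log2 ratio of 0.01 over 19 measured genes, with 10 above 0. Of the 19, 0 were at 2-fold, where 3.14% of all measured genes were. Patronin, which protects minus ends, read 45.7 in yw and 30.1 in mbf1, a ratio of -0.60. The tubulin-binding gene stai had 18.9 and 28.5, a ratio of 0.59, and Atat, the gene of a tubulin acetyltransferase, was at least 1.39-fold brighter in mbf1. The katanin subunits Kat60 and kat80, which cut microtubules together, had ratios of -0.47 each. The largest ratios of this list thus fell on both sides of 0.

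Of 17 kinesin genes with a probe set 9 were measured, where 70.8% of all genes were. The 9 had a median of 0.28, with 0 at 2-fold, where 3.14% of all measured genes were. Ratios were above 0 for 8 of the 9, where 49.8% of all measured genes had ratios above 0. Klp59C and Klp59D, which shorten microtubules or belong to that subfamily, had ratios of 0.63 and 0.62. neb, a kinesin of dividing cells, had one of 0.57. Of cytoplasmic dynein and dynactin, 12 of 13 genes with a probe set were measured, with a median of 0.01. DCTN1-p150, the large dynactin subunit known as Glued, read 41.6 in yw and 83.3 in mbf1, a log2 ratio of 1.002, and was the 1 of 12 at 2-fold, where 1.51% of all measured genes were at least 2-fold higher. The dynein intermediate chain gene sw had 21.1 and 40.6, a ratio of 0.94, whereas DCTN5-p25 had 41.3 and 28.5, a ratio of -0.54.

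The genes with the pair of log2 signals nearest to each tubulin were CG3168 for alphaTub84D, CG5676 for alphaTub85E, CG3568 for alphaTub67C, Ahcy for betaTub56D, CG5989 for betaTub60D and CG5089 for betaTub85D. Their distances lay between 0.01 and 0.07 on the log2 scale. A likeness over 2 arrays rests on 2 values per gene and describes brightness only.

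**Figure D5:**
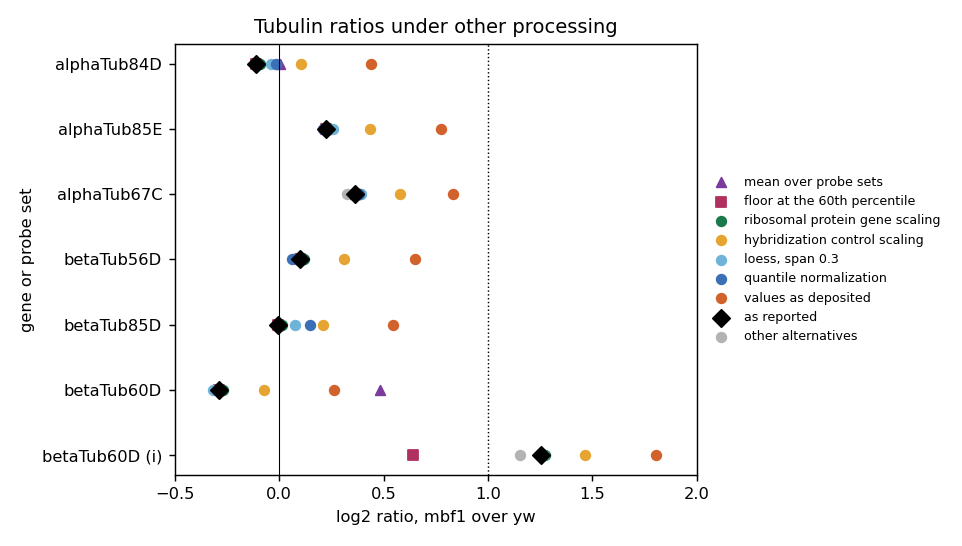
Log2 ratio of mbf1 over yw of each tubulin gene, and of the second probe set of betaTub60D (i), as reported (black diamonds) and under the alternatives (coloured and grey symbols), with a dotted line at 2-fold. The ratios of the 6 genes stay below the dotted line in each alternative, with the highest at 0.83 for alphaTub67C without scaling, and betaTub60D changes sign when its probe sets are averaged, at 0.48, and without scaling, at 0.26.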

How the data were processed

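Total RNA of yw and homozygous mbf1 mutant animals was measured on 1 Affymetrix array each. Each probe set has 1 deposited intensity per array, on a linear scale, which the authors made with MAS5, per the submitters' processing notes; its version is not stated there. The arrays' trimmed means (2% at each end) were 60.5 and 88.3.

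Of 14010 probe sets, 44 were controls, which were left out. The platform annotation gave 1 symbol for 12444, several for 327 and none for 1239, and 12394 were matched by gene identifier to a gene table of Release 6, which changed 0 symbols. Ratios were centred so that probe sets in the brighter 50% of each array had a median log2 ratio of 0. Values under the floor were raised to it, so such folds are lower bounds. A gene was represented by its brightest probe set. Robust SDs are the median absolute deviation, scaled to a normal distribution.

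No test was possible with 1 array per group, and the number of arrays limits the precision. The members and lists were chosen with earlier results of these data known. Named were all members, other tubulins, mbf1 and, in each list, genes with the largest ratios or a 2-fold difference, with further genes of the lists named for their role after their values were seen. On data simulated from the yw array, with 7384 genes measured, 94.0% of 199 genes changed by 1.5 (log2) were recovered. The changed genes were drawn only from probe sets far above the floor, and the noise was an assumed value. That share follows from the noise and the size of change that were chosen, so it does not measure recovery on the real arrays. Nor does it apply to dim probe sets, such as that of alphaTub67C and the dimmer one of betaTub60D. Python 3.11.15, pandas 2.3.3, numpy 2.4.6 and statsmodels 0.14.6 were used.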

Additional observations from a re-analysis of the deposited data

Results flagged for a closer look

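The second probe set of betaTub60D, 143391_i_at, stands for no gene in the comparison of genes, because 143392_r_at is brighter. It drew attention as a signal in data that this comparison does not use: its log2 ratio was 1.25, above the yw array, which serves as the control. Its signals were 23.4 and 55.7. With 1 array per genotype, no sample could be far from others of its group, and no difference between groups of contrasts could be formed.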

How the results depend on the processing

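Alternatives changed the tubulin ratios mainly through scaling. No paired analysis was possible because each genotype had 1 array. As deposited, without scaling, the log2 ratios were 0.44 for alphaTub84D, 0.77 for alphaTub85E, 0.65 for betaTub56D, 0.26 for betaTub60D and 0.54 for betaTub85D, shifted by construction, and the mbf1 signals were 945.5 for alphaTub84D, 725.4 for alphaTub85E, 38.2 for alphaTub67C, 413.1 for betaTub56D, 175.7 for betaTub60D and 1091 for betaTub85D. Quantile normalization put the mbf1 signal of betaTub85D at 965.1, as it also changes the yw array. The mean over probe sets put betaTub60D at 0.48. Of 71 tubulin ratios under alternatives, 63 moved by less than the robust SD of genes of like signal. Part of these could not move. A changed floor leaves a gene far above it as it was, and so does averaging for a gene with 1 probe set. The ratio of alphaTub67C ran from 0.32 to 0.83 and that of alphaTub84D from -0.11 to 0.44.

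Over all genes, 116 were at least 2-fold higher and 125 lower. Leaving the arrays unscaled gave 798 and 34, and hybridization control scaling 235 and 78. Floors at the 25th and 60th percentiles gave 279 and 260, and 53 and 58. A pseudocount at the 10th percentile gave 226 and 204. A threshold of 1.5-fold gave 572 and 594, and 3-fold gave 24 and 29. Of 181 list medians under alternatives, 161 moved by less than the robust SD of the list's genes, and some of these too could not move. Signal over background limits alphaTub67C and the dimmer betaTub60D probe set most.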

Other observations

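Of 12 yolk and eggshell genes of the adult female with a probe set, 7 exceeded the floor in yw and 6 in mbf1, where 65.9% and 66.2% of all genes did, and the yolk protein gene Yp1 was under it on both. The 7 measured had a median log2 ratio of -0.31, and 0 of the 7 differed by 2-fold, where 3.14% of all measured genes did. The eggshell gene Cp18 had signals of 91.0 and 49.3, a ratio of -0.88, and the yolk protein gene Yp3 had 31.1 and 36.0. This list covers yolk and eggshell genes only and gives no measure of other adult tissue on the arrays.

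Measured genes of neurons, dividing cells and embryonic patterning had median log2 ratios of 0.17 over 7 genes, -0.23 over 3 and 0.38 over 8. In each of these lists 0 genes differed by 2-fold, where 3.14% of all measured genes did. The neuron median was -0.11 with the floor raised to the 60th percentile and -0.08 over probe sets without a suffix, and the patterning median was 0.11 over genes above the floor in both genotypes. The median of dividing cells was -0.79 with a pseudocount in place of the floor and 0.04 without scaling. Appl, a neuronal membrane protein, had signals of 55.4 and 33.7, a ratio of -0.71. The segmentation gene hry had 198.8 and 270.3, a ratio of 0.44, and eve, another segmentation gene, was at least 1.42-fold brighter in mbf1, with its yw signal under the floor.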
